A study of Mus musculus with 6 samples.

Results

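The interferon-stimulated effector genes considered here are 45 named genes whose products sense foreign or displaced RNA, tag or modify proteins, degrade RNA or block the entry and release of viruses. The 45 symbols were given as a list, and 44 of them matched a row of a count table of 24794 genes. Zbp1, a sensor of Z-form nucleic acid, had no row and was not analysed here. The libraries are of polyadenylated RNA from Lewis lung carcinoma (LLC) cells, a mouse line derived from a spontaneous lung tumour of a C57BL/6 mouse. Cells were transfected with mimics labelled miR-291-3 (mimic, 3 libraries) or with a control for the mimics (control, 3 libraries). Both conditions were therefore transfected, and the labels give no dose, time after transfection or sequence for either oligonucleotide. The labels do not name separate cultures either, so the p-values below measure the spread between libraries, which may be technical.

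The series' design text names the mimicked microRNA as miR-291a-3p. It belongs to the miR-290 cluster, which is active in mouse embryonic stem cells. Its mature sequence is shown because the search for target sites below rests on its seed. In the RefSeq table for GRCm38.p6 it lies at chr7:3218968-3218989 on the plus strand, and capitals mark the seed, bases 2 to 8.
miR-291a-3p: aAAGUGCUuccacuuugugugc

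Interferons are secreted proteins that cells release after sensing viral nucleic acid. Type I interferon binds a receptor of 2 chains, Ifnar1 and Ifnar2, whose kinases Jak1 and Tyk2 pass the signal on by phosphorylation. A transcription factor that contains Stat2 and Irf9 then binds the interferon-stimulated response element (ISRE) in the promoters of effector genes. Many tumour lines keep some of these genes active without added interferon, and several effectors, among them Rigi and Eif2ak2, respond to double-stranded RNA.

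Depth was 25376993 to 29058948 counts per mimic library and 28318155 to 32963986 per control library. The biological coefficient of variation over genes was 2.02%. Leukocyte markers summed to between 10.8 and 11.8 CPM (counts scaled to library size by TMM) in mimic libraries and between 17.4 and 19.8 CPM in control libraries over 9 of 10 markers with a row, and 2 of the 4 tested, Cd14 and Lyz2, were lower. Of the leukocyte markers, Ptprc, Adgre1 and Itgam had no count in any mimic library. In control library 2 they stood at 0.139, 0.243 and 0.139 CPM, and Itgam stood at 0.133 CPM in control library 1. Cd68 and Csf1r were counted in every library and did not pass the test. Cd68 had 41, 45 and 32 counts in mimic libraries and 62, 50 and 42 in control libraries. Csf1r had 27, 22 and 25 counts in mimic libraries and 36, 45 and 38 in control libraries. Epithelial markers summed to between 549.6 and 565.8 CPM in mimic libraries and between 487.9 and 503.3 CPM in control libraries, nearly all of it the keratin gene Krt8, while Epcam, Cdh1 and Cldn4 averaged under 1 CPM. Of the lung lineage markers, Sftpb and Napsa had a row. Napsa was low and was lower in mimic libraries, with 0.361, 0.506 and 0.246 CPM, against 1.03, 0.867 and 1.16 CPM in control libraries (log2 change -1.46, adjusted p = 0.000174, edgeR), and Sftpb had 1 count in all. Endothelial markers summed to at most 0.948 CPM in any library, and fibroblast markers to between 22.4 and 28.3 CPM in mimic libraries and between 29.7 and 33.7 CPM in control libraries. Most of the fibroblast sum was Pdgfra, which was lower (20.04 ± 0.80 CPM in mimic and 29.8 ± 2.0 CPM in control libraries; SD, n = 3 each), while Lum was higher (1.74 ± 0.23 CPM in mimic and 0.719 ± 0.13 CPM in control libraries). Col1a2 was above control in every mimic library without passing the test (adjusted p = 0.0572, edgeR), and Col1a1 had 22, 104 and 3 counts in mimic libraries and 2, 1 and 5 in control libraries. The part of other cell types in the results below was not tested.

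Most of the effector genes that could be tested were lower in mimic libraries. Of the 45, 34 passed the filter on low counts, and of these 28 fell, 2 rose and 4 did not pass the test (p under 0.05 in edgeR's quasi-likelihood test, adjusted by Benjamini-Hochberg over 13779 genes). Among all genes tested, 24.8% fell and 24.3% rose. The median log2 change was -0.43 over the 34 tested members and -0.01 over all genes. Every mimic library lay below every control library in 26 members and above in 2, against 27.9% and 27.0% of all genes tested. Since 3 members, Usp18, Xaf1 and Parp14, passed the filter through the control libraries alone and so had to differ, the count was also taken over members with a mean of at least 30 counts. There 24 of 30 fell and 2 rose, against 27.1% and 27.4% of the 11966 genes with that mean, and the median log2 change was -0.36. Of these 30 members, 7 fell by at least 1.5-fold, against 3.43% of the genes with that mean. In bulk RNA, fewer cells that express a gene and less RNA per cell cannot be told apart.

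**Figure D1:**
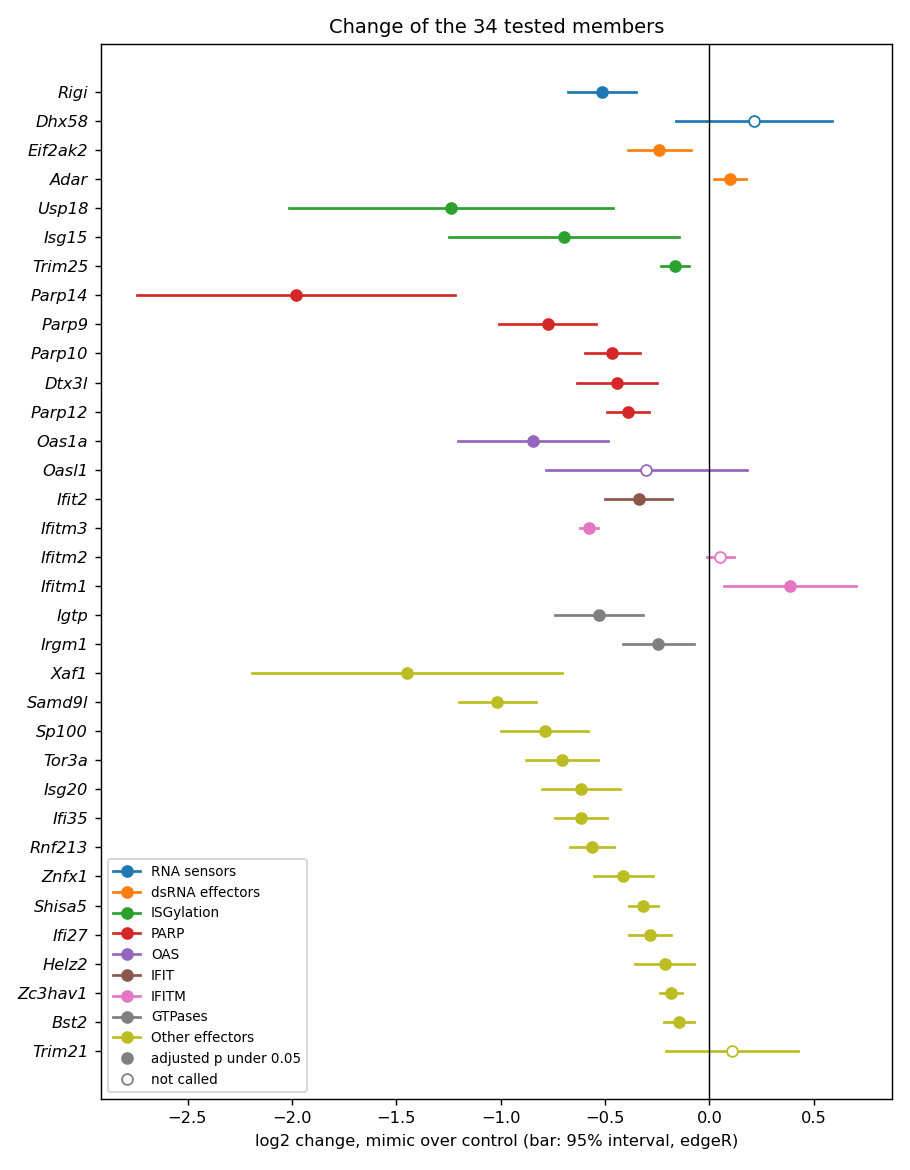
Log2 change of each tested member, mimic over control (horizontal axis), with bars for the 95% interval of the edgeR fit, colour for role group, and filled points for an adjusted p under 0.05. Most points lie left of 0; Adar and Ifitm1 are the filled points to the right, and the widest bars belong to the low-count genes Parp14, Usp18 and Xaf1.

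The cytosolic RNA sensors split between a measurable pair and a pair close to the detection limit. Rigi, which recognises RNA with a triphosphate at its 5' end, had 8.62, 9.29 and 10.2 CPM in mimic libraries and 12.7, 14.4 and 13.1 CPM in control libraries. The groups did not overlap, and its log2 change was -0.51 ± 0.08 (SE, adjusted p = 2.28e-06, edgeR). Dhx58, a related helicase without signalling domains that tunes the other sensors, had 1.97, 2.06 and 1.97 CPM in mimic libraries and 1.66, 1.42 and 2.05 CPM in control libraries. Its groups overlapped, and its log2 change of 0.21 had an interval from -0.16 to 0.59 that leaves its direction undetermined (adjusted p = 0.359, edgeR). Ifih1, the sensor of long double-stranded RNA also called MDA5, had 14 counts over the mimic libraries and 34 over the control libraries. That is 0.169 CPM without TMM scaling, called unscaled CPM below (exact Poisson interval 0.0925 to 0.284) in mimic libraries and 0.374 unscaled CPM (0.259 to 0.523) in control libraries, a ratio of 0.452 with an exact interval from 0.224 to 0.865. Such intervals cover counting error only. Ddx60, a helicase described as a helper of RNA sensing, had 0 counts in mimic libraries, where a floor of 3 counts is 0.0363 unscaled CPM and the exact Poisson upper limit 0.0446, and 5 counts in control libraries, or 0.055 unscaled CPM.

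Of the effectors that bind double-stranded RNA, Eif2ak2 fell and Adar rose. Eif2ak2 encodes PKR, the kinase that halts translation when it binds double-stranded RNA, and had 11.0, 11.0 and 10.8 CPM in mimic libraries and 12.1, 13.4 and 13.3 CPM in control libraries. All mimic libraries were below all control libraries, with a log2 change of -0.24 ± 0.07 (SE, adjusted p = 0.00723, edgeR), a call that was lost with DESeq2 (adjusted p = 0.0605). Adar, which edits adenosine to inosine in double-stranded RNA and so shields the cell's own RNA from sensors, had 47.7, 45.4 and 47.3 CPM in mimic libraries and 43.4, 44.7 and 43.1 CPM in control libraries. Its log2 change of 0.10 ± 0.04 (SE, adjusted p = 0.0311, edgeR) was not called in 8 of 14 other settings. With total counts only as scaling it was 0.04 (adjusted p = 0.387), and the call was also lost without control replicate 1 or 3 (adjusted p = 0.0808 and 0.0993) and without mimic replicate 1 or 3 (adjusted p = 0.0816 and 0.0749).

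In ISGylation, the attachment of the ubiquitin-like protein Isg15 to other proteins, Trim25 fell, the only member with a mean of at least 30 counts. Isg15 and Usp18 were also called lower, but at low counts, and Usp18 passed the filter through the control libraries alone. Trim25, a ubiquitin ligase that acts on Rigi and can also use Isg15, had 60.8, 58.4 and 58.5 CPM in mimic libraries and 65.8, 67.7 and 65.6 CPM in control libraries. The difference was small but without overlap, a log2 change of -0.16 ± 0.03 (SE, adjusted p = 0.00012, edgeR). Isg15 itself had 17, 15 and 25 counts in mimic libraries and 31, 25 and 50 counts in control libraries, so that the highest mimic library equalled the lowest control library. Its summed level was 0.689 unscaled CPM (0.522 to 0.892) in mimic libraries and 1.17 unscaled CPM (0.955 to 1.41) in control libraries. The call for Isg15 (log2 change -0.70, adjusted p = 0.0326, edgeR) did not hold with DESeq2 (adjusted p = 0.16) or when one library was left out: control replicate 3 (0.268), mimic replicate 1 (0.0784) or mimic replicate 2 (0.153). Usp18, the protease that removes Isg15 and also dampens signalling at the interferon receptor, had 7, 5 and 6 counts in mimic libraries and 18, 16 and 15 in control libraries. Its log2 change of -1.24 ± 0.38 (SE, adjusted p = 0.00747, edgeR) was not called with DESeq2 (adjusted p = 0.0833).

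The enzymes that activate, carry and attach Isg15 are not among the 45 but on a list of other interferon pathway genes. Uba7, its activating enzyme, had 15, 10 and 17 counts in mimic libraries and 71, 76 and 50 in control libraries, a log2 change of -2.04 ± 0.26 (SE, adjusted p = 1.12e-07, edgeR). Ube2l6, its conjugating enzyme, averaged 7.94 ± 0.535 CPM in mimic libraries and 15.2 ± 1.77 CPM in control libraries (SD, n = 3 each). Herc6, the mouse ligase, averaged 9.16 ± 1.25 CPM in mimic libraries and 10.8 ± 0.645 CPM in control libraries (SD, n = 3 each), with overlapping groups and an adjusted p of 0.0291 (edgeR). Uba7 and Herc6 were chosen after their values were seen.

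In the group of ADP-ribosyltransferases (PARPs) and their partner Dtx3l, the 4 members with a mean of at least 30 counts fell, against 27.1% of all genes with that mean. The other member, Parp14, was also called lower but passed the filter through the control libraries alone. Parp9 and Dtx3l, which form a complex of an ADP-ribosyltransferase and a ubiquitin ligase, both fell. Parp9 had 3.81, 3.94 and 3.86 CPM in mimic libraries and 7.64, 6.17 and 6.10 CPM in control libraries, a log2 change of -0.77 ± 0.11 (SE, adjusted p = 1.14e-06, edgeR). Dtx3l had 6.13, 5.92 and 6.15 CPM in mimic libraries and 8.83, 7.66 and 8.24 CPM in control libraries, a log2 change of -0.44 ± 0.09 (SE, adjusted p = 0.000196, edgeR). In both genes the mimic libraries lay close to each other and below every control library. Parp12, which modifies proteins with single ADP-ribose units, had 23.2, 24.1 and 25.4 CPM in mimic libraries and 31.0, 33.4 and 31.1 CPM in control libraries. Parp10, another single-unit transferase, had 14.7, 14.8 and 12.8 CPM in mimic libraries and 19.7, 19.5 and 19.03 CPM in control libraries. Their log2 changes were -0.39 ± 0.05 and -0.47 ± 0.06 (SE, adjusted p = 9.7e-08 and 3.67e-07, edgeR). Parp14, the large transferase with macrodomains, had 8, 4 and 6 counts in mimic libraries and 25, 36 and 21 in control libraries. Its log2 change of -1.98 ± 0.37 (SE, adjusted p = 4.72e-05, edgeR) comes from a gene that was tested only because of its control libraries, and the ratio of summed counts was 0.241 with an interval from 0.136 to 0.405. On log2(FPKM + 1), a scale that compresses low values, it was -0.09 (adjusted p = 0.0535, limma).

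The 2'-5'-oligoadenylate synthetases (OAS), which make short oligoadenylates when they bind double-stranded RNA, were expressed at low levels. Oas1a had 1.36, 1.37 and 1.44 CPM in mimic libraries and 2.36, 2.57 and 2.59 CPM in control libraries. The groups were well apart, with a log2 change of -0.84 ± 0.18 (SE, adjusted p = 0.00016, edgeR), although reads of Oas1a may be split with its near-identical neighbours of the Oas1 cluster. Oasl1, known in mouse as an inhibitor of Irf7 translation, had overlapping groups and a log2 change of -0.30 with an interval from -0.78 to 0.18. Oas3 had 5, 3 and 4 counts in mimic libraries and 11, 9 and 9 in control libraries, a ratio of summed counts of 0.454 (0.211 to 0.918). Oasl2 had 13 counts in mimic and 22 in control libraries (ratio 0.649, 0.3 to 1.35), and Oas2 had 1 count in mimic and 0 in control libraries, at or under the limit of detection in both.

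Of the IFIT proteins, which bind the 5' ends of foreign RNA, Ifit2 alone had the counts for a test. It had 9.74, 8.92 and 8.96 CPM in mimic libraries and 11.3, 12 and 11.7 CPM in control libraries. All mimic libraries were below all control libraries, with a log2 change of -0.34 ± 0.08 (SE, adjusted p = 0.000497, edgeR). Ifit1 had 8, 7 and 17 counts in mimic libraries and 7, 14 and 9 in control libraries, which overlapped, and its ratio of summed counts was 1.17 (0.689 to 1.99). Ifit3 had 3, 9 and 7 counts in mimic libraries and 9, 17 and 7 in control libraries, a ratio of 0.632 (0.34 to 1.15). Ifit3 has a near-identical copy, Ifit3b, which had 1 count in control library 1 and no count in any other library. How reads that match both genes were counted is not known here.

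The IFITM proteins, which hinder the fusion of viruses with cell membranes, went different ways although their genes lie side by side on chromosome 7. Ifitm3 (ENSMUSG00000025492.7), which acts in endosomes, had the highest level of all members. It had 204, 209 and 205 CPM in mimic libraries and 306, 302 and 313 CPM in control libraries, and its log2 change was -0.58 ± 0.02 (SE, adjusted p = 1.25e-19, edgeR). The spread within each group was small beside the difference between the groups. Ifitm2 had 80.6, 79.95 and 84.05 CPM in mimic libraries and 80.7, 76.4 and 78.8 CPM in control libraries. Its groups overlapped, and its log2 change of 0.05 had an interval from -0.01 to 0.12 (adjusted p = 0.171, edgeR); with total counts only it was -0.00. Ifitm1, which acts mainly at the cell surface, had 2.85, 2.82 and 3.06 CPM in mimic libraries and 1.86, 2.53 and 2.29 CPM in control libraries. Its log2 change of 0.39 ± 0.16 (SE, adjusted p = 0.0404, edgeR) was not called in 7 of 14 other settings. Those were DESeq2 (adjusted p = 0.157), total counts only (0.0806) and the fits without control replicate 1 (0.187), control replicate 3 (0.0614), mimic replicate 1 (0.0577), mimic replicate 2 (0.056) or mimic replicate 3 (0.113). The 3 genes are similar in sequence, so their reads may in part be split.

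Among the interferon-inducible GTPases, which attack the membranes around intracellular pathogens, Igtp and Irgm1 fell and the guanylate-binding proteins were barely detected. Igtp had 5.49, 4.66 and 4.57 CPM in mimic libraries and 7.27, 6.76 and 7.11 CPM in control libraries, a log2 change of -0.53 ± 0.10 (SE, adjusted p = 7.43e-05, edgeR). Irgm1, which regulates the other members of its family, had 9.94, 9.54 and 9.17 CPM in mimic libraries and 9.96, 11.7 and 12.2 CPM in control libraries. One control library lay within 0.1 CPM of the highest mimic library, and the call (log2 change -0.25, adjusted p = 0.0154, edgeR) did not hold with DESeq2 (adjusted p = 0.0925) or when control replicate 3 (0.117) or mimic replicate 3 (0.0692) was left out. Gbp2 had 15 counts in mimic and 20 in control libraries (ratio 0.823, 0.392 to 1.69), and Gbp3 had 5 in mimic and 7 in control libraries (ratio 0.784, 0.196 to 2.87), differences that were not detectable at this depth.

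**Figure D2:**
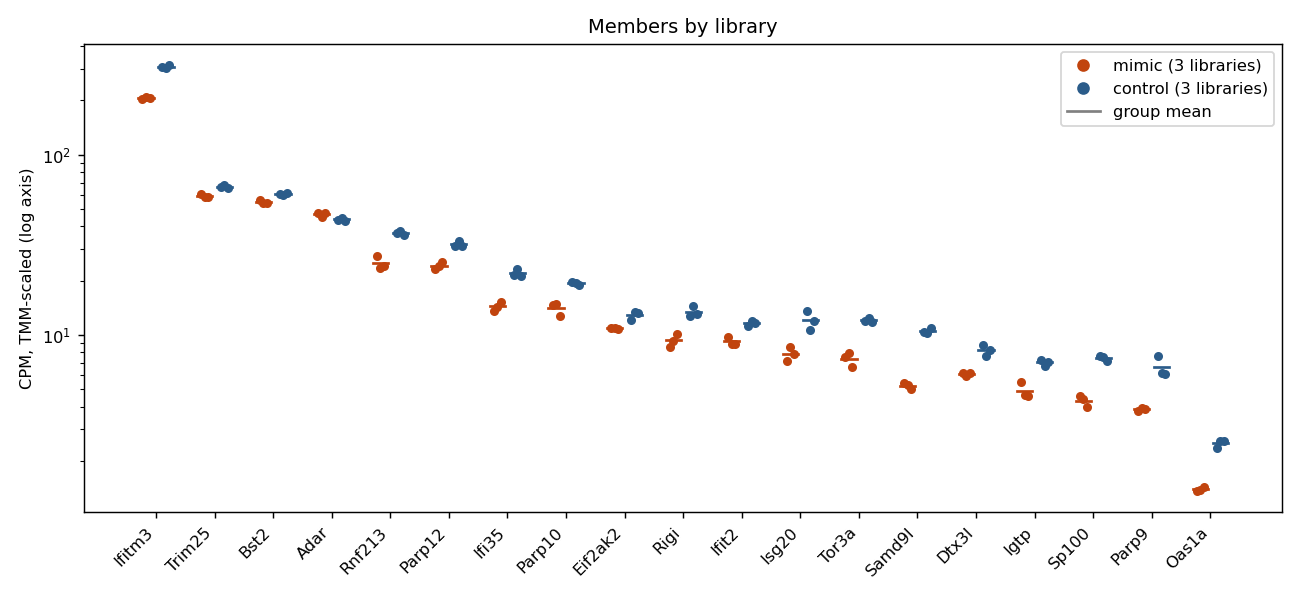
CPM of 19 members in each library (log axis), ordered by mean level, with mimic libraries left of control libraries and lines for group means. Ifitm3 is highest, with mimic libraries between 204 and 209 CPM and control libraries between 302 and 313 CPM, and Adar is the gene here whose mimic points lie above its control points.

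The remaining 15 members are restriction factors and other effectors, of which 14 were tested and 13 fell. Of the 13 tested with a mean of at least 30 counts, 12 fell, against 27.1% of all genes with that mean. The other tested member, Xaf1, was also called lower but passed the filter through the control libraries alone. Samd9l, which restrains translation and cell growth, had 5.41, 5.28 and 4.99 CPM in mimic libraries and 10.4, 10.3 and 10.9 CPM in control libraries. Its log2 change of -1.02 ± 0.09 (SE, adjusted p = 5.96e-11, edgeR) was the lowest among the members with a mean of at least 30 counts. Sp100, a component of nuclear bodies that represses viral genomes, had 4.57, 4.41 and 4.004 CPM in mimic libraries and 7.64, 7.59 and 7.20 CPM in control libraries (log2 change -0.79 ± 0.10 SE, adjusted p = 1.14e-07, edgeR). Tor3a, an interferon-responsive ATPase of the endoplasmic reticulum, had 7.58, 7.98 and 6.60 CPM in mimic libraries and 12.02, 12.4 and 11.8 CPM in control libraries (log2 change -0.71 ± 0.08 SE, adjusted p = 2.38e-08, edgeR). In these 3 genes no mimic library came near a control library.

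Isg20, an exonuclease that degrades RNA, had 7.18, 8.60 and 7.80 CPM in mimic libraries and 13.7, 10.7 and 11.9 CPM in control libraries, a log2 change of -0.62 ± 0.09. Ifi35, which pairs with the protein Nmi, had 13.7, 14.3 and 15.2 CPM in mimic libraries and 21.6, 23.3 and 21.4 CPM in control libraries, a log2 change of -0.61 ± 0.06. Rnf213, a very large ubiquitin ligase, had 27.4, 23.4 and 24.3 CPM in mimic libraries and 36.8, 37.9 and 36.0 CPM in control libraries, a log2 change of -0.56 ± 0.05. None of the 3 had overlapping groups, and their adjusted p was 1.23e-06, 7.8e-10 and 8.44e-11 (edgeR).

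Decreases smaller than those of Isg20, Ifi35 and Rnf213 were found in further genes of this group. Znfx1, a helicase-like sensor of double-stranded RNA at mitochondria, had a log2 change of -0.41. Shisa5, a membrane protein linked to cell death, had one of -0.32, and Ifi27, a small mitochondrial protein, one of -0.29. Zc3hav1, the zinc finger protein ZAP that binds CpG-rich RNA, had 112, 113 and 111 CPM in mimic libraries and 129, 127 and 128 CPM in control libraries, a log2 change of -0.18. Bst2, the tetherin that holds budding virus at the cell surface, had 56.0, 54.2 and 53.7 CPM in mimic libraries and 60.6, 59.4 and 61.2 CPM in control libraries, a log2 change of -0.15. The 5 genes had adjusted p-values between 4.84e-09 and 0.000656 (edgeR). Helz2, a helicase that acts as a transcriptional coactivator, had overlapping groups and a log2 change of -0.21 (adjusted p = 0.0113, edgeR) that did not hold with DESeq2 (adjusted p = 0.0732), with limma on FPKM (0.076 and 0.0645) or when control replicate 1 (0.0728), mimic replicate 2 (0.0547) or mimic replicate 3 (0.102) was left out. Trim21, an intracellular antibody receptor and ubiquitin ligase, did not pass, with a log2 change of 0.11 and an interval from -0.21 to 0.42.

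Xaf1, which counteracts an inhibitor of caspases, had 5, 8 and 6 counts in mimic libraries and 19, 15 and 26 in control libraries. Its log2 change of -1.45 ± 0.36 (SE, adjusted p = 0.00129, edgeR) comes from a gene that was tested only because of its control libraries. The ratio of summed counts was 0.348 (0.196 to 0.591). Rsad2, the radical SAM enzyme viperin, had 2, 3 and 3 counts in mimic libraries and 4, 20 and 4 in control libraries. The summed ratio of 0.314 (0.123 to 0.706) rests on control replicate 2: without that library it was 0.756. Control replicate 2 is also the library with counts of Ptprc and Adgre1, and with the most counts of Ifit1 and Ifit3 among the control libraries. Whether other cells took part in these counts was not tested.

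**Figure D3:**
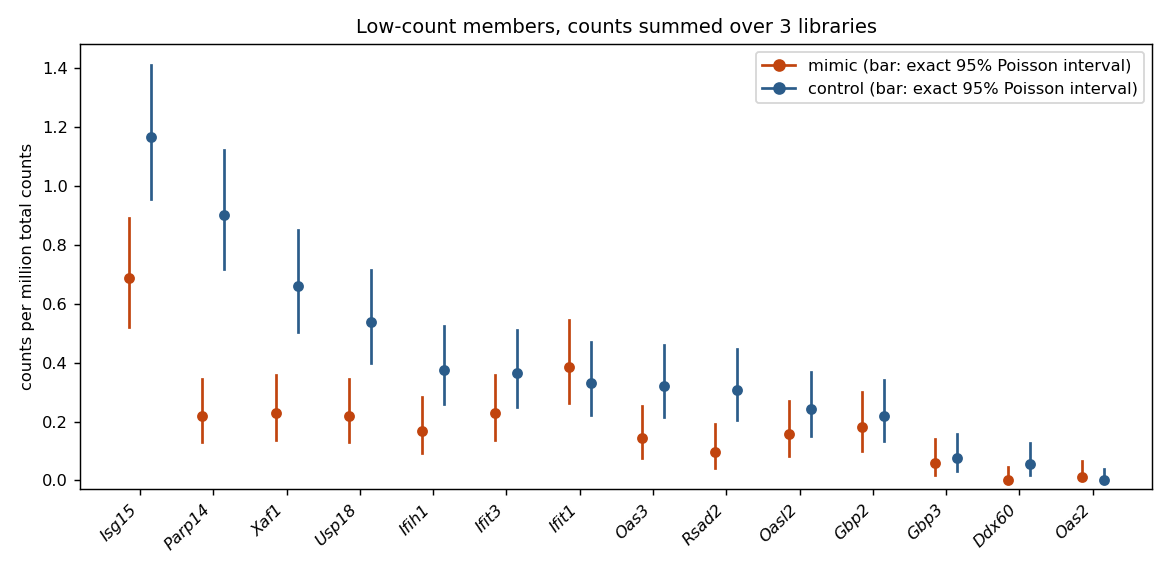
Counts of the 14 low-count members summed over the 3 libraries of a group, in unscaled CPM (linear axis), mimic left of control, with exact 95% Poisson intervals for counting error. The intervals of the 2 groups are apart for Isg15, Parp14, Xaf1, Usp18 and Rsad2 and overlap for Ifit1, Gbp2, Gbp3 and Oas2, among others.

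The role groups differed widely in level. Summed over members and given in unscaled CPM, the IFITM group stood at 283.0, 284.8 and 286.3 in mimic libraries and 395.7, 388.5 and 402.4 in control libraries. The PARP group stood at 47.3, 47.8 and 47.5 in mimic libraries and 69.3, 69.2 and 66.3 in control libraries, and the OAS group at 2.76, 2.44 and 2.72 in mimic libraries and 4.29, 4.59 and 4.16 in control libraries. The RNA sensors stood at 10.6, 11.2 and 12.1 in mimic libraries and 15.2, 16.6 and 15.8 in control libraries, most of it Rigi. The IFIT group stood at 10.01, 9.29 and 9.60 in mimic libraries and 12.01, 13.3 and 12.4 in control libraries, and the GTPases at 15.4, 14.1 and 13.8 in mimic libraries and 17.8, 19.1 and 19.99 in control libraries. In each of these groups every mimic library was below every control library. The ISGylation group, which Trim25 dominates, stood at 60.7, 57.8 and 58.4 in mimic libraries and 68.7, 70.4 and 68.9 in control libraries. The sum of Eif2ak2 and Adar overlapped, with 57.6, 55.1 and 56.9 in mimic libraries and 56.4, 59.2 and 57.5 in control libraries. Its direction depends on the scale. TMM factors were 0.978 to 0.983 in mimic libraries and 1.019 to 1.021 in control libraries. Unscaled CPM therefore place mimic libraries lower beside control libraries than CPM do. Over all 44 members the sum was 833.4, 825.4 and 827.9 in mimic libraries and 1089, 1081 and 1090 in control libraries. Ifitm3 took 24.4% of the mimic sum and 28.8% of the control sum, and without it the sums were 632.5, 621.5 and 627.0 in mimic libraries and 777.8, 772.8 and 770.6 in control libraries.

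**Figure D4:**
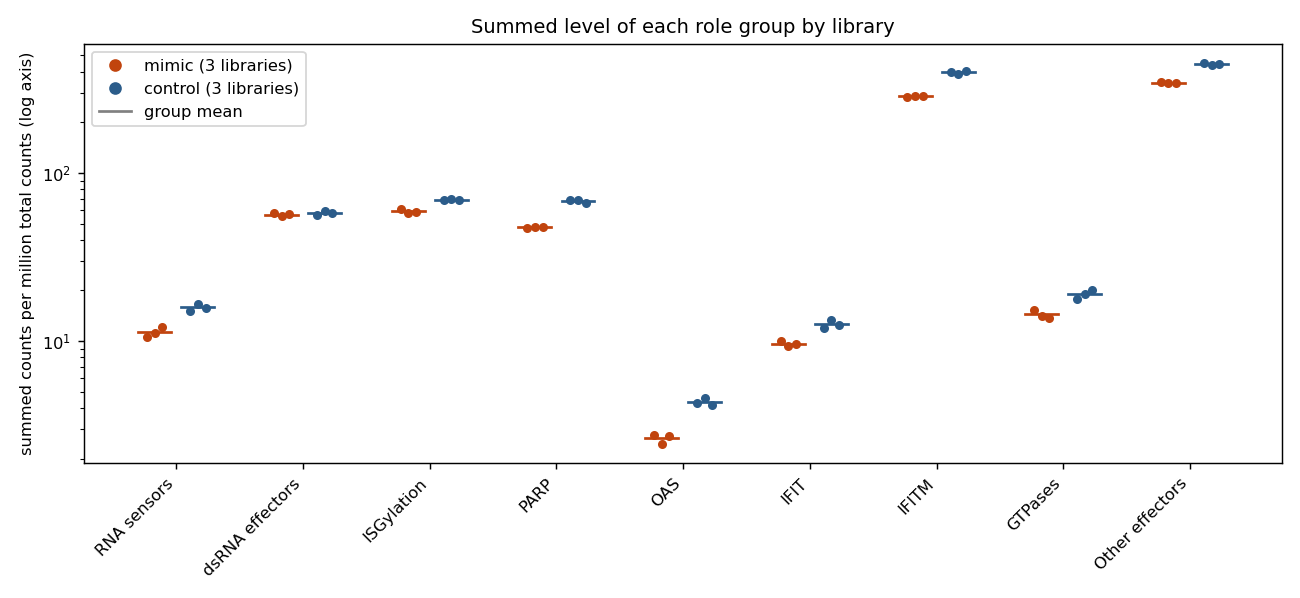
Counts summed over the members of each role group, in unscaled CPM, in each library (log axis), mimic left of control, with lines for group means. The mimic libraries lie below the control libraries in every group except the effectors that bind double-stranded RNA (labelled dsRNA effectors), where the 2 overlap.

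Levels can be compared between genes on the deposited FPKM, which are per length. The highest were Ifitm3, with 263 ± 5.4 FPKM in mimic and 402 ± 5.8 in control libraries (SD, n = 3 each), Ifitm2, with 108 ± 1.9 in mimic and 106.5 ± 2.5 in control libraries, and Bst2, with 52.4 ± 1.4 in mimic and 59.4 ± 0.66 in control libraries. Ifitm3 and Ifitm2 are well apart in each group, and so are Ifitm2 and Bst2. Shisa5, Ifi27 and Zc3hav1 followed, with 16.4 ± 0.74, 16.1 ± 0.46 and 14.9 ± 0.30 FPKM in mimic libraries and 20.9 ± 0.44, 20.1 ± 1.1 and 17.4 ± 0.092 in control libraries, where the first 2 do not differ beyond their spread. At the low end, Isg15 averaged 0.86 FPKM in mimic and 1.42 in control libraries, Ifit1 0.123 in mimic and 0.11 in control libraries, and Rsad2 0.02 in mimic and 0.0633 in control libraries.

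The promoters of the members were searched for the core of the ISRE, the letters GAAA, then 2 bases of any kind, then GAAA again, on either strand (TTTC in the printed stretches where it lies on the other strand). The windows run from 250 bases before to 50 bases after each annotated start (RefSeq, GRCm38.p6), and a gene can have several. Of 36 members with a window, 19 held a core (52.8%), against 1079 of 27025 genes with a window (3.99%) and 344 of the 9912 genes that were both tested here and matched (3.47%). Since the members are known interferon targets, that share describes the list. The 19 members held 30 cores, and 10 held at least 2. A core was in 8 of the 9 members with a window whose counts were too low for a test and in 11 of the 27 tested. Of the tested members with a core 9 of 11 fell, with a median log2 change of -0.32, and of those without 13 of 16 fell and 2 rose, with a median of -0.40. Of all genes tested, 24.8% fell and 24.3% rose. The 16 without a core include Xaf1, which passed the filter through the control libraries alone and so had to differ. The difference between the 2 medians was not tested. A match is a run of letters and not a bound site, and members without one may hold the element outside the window or in another form.

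The stretches with cores are printed for members that the results turn on, from 20 bases before the first core to 20 bases after the last where the window allows, on the gene's own strand, with the cores in capitals. Isg15 has 3 overlapping cores at chr4:156200855-156200916 (minus strand), and Oas1a 2 at chr5:120907510-120907565 (minus). Irgm1 has 2 at chr11:48871415-48871470 (minus) and Igtp 1 at chr11:58199502-58199551 (plus). Ifitm3 has 2 at chr7:141010696-141010762 (minus) and Bst2 2 at chr8:71537567-71537622 (minus). Rigi, listed in RefSeq under its older symbol, has 1 at chr4:40239794-40239843 (minus) and Eif2ak2 1 at chr17:78882525-78882574 (minus). Ifit1, with 2 cores at chr19:34640765-34640833 (plus), is shown as a gene whose counts were too low for a test, and Ifitm2, with 1 at chr7:140955978-140956027 (minus), as one that did not pass it.
Isg15: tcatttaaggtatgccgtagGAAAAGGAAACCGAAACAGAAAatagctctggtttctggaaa
Oas1a: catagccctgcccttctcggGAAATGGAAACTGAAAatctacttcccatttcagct
Irgm1: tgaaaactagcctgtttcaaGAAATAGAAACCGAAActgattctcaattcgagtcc
Igtp: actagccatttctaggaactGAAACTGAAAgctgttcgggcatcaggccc
Ifitm3: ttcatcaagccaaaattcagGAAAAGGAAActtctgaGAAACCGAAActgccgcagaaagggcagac
Bst2: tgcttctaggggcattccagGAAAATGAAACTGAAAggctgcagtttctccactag
Rigi: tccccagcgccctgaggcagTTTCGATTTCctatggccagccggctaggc
Eif2ak2: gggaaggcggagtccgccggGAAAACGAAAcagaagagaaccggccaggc
Ifit1: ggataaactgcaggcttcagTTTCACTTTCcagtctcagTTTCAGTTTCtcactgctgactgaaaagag
Ifitm2: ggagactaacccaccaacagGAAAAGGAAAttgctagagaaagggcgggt

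**Figure D5:**
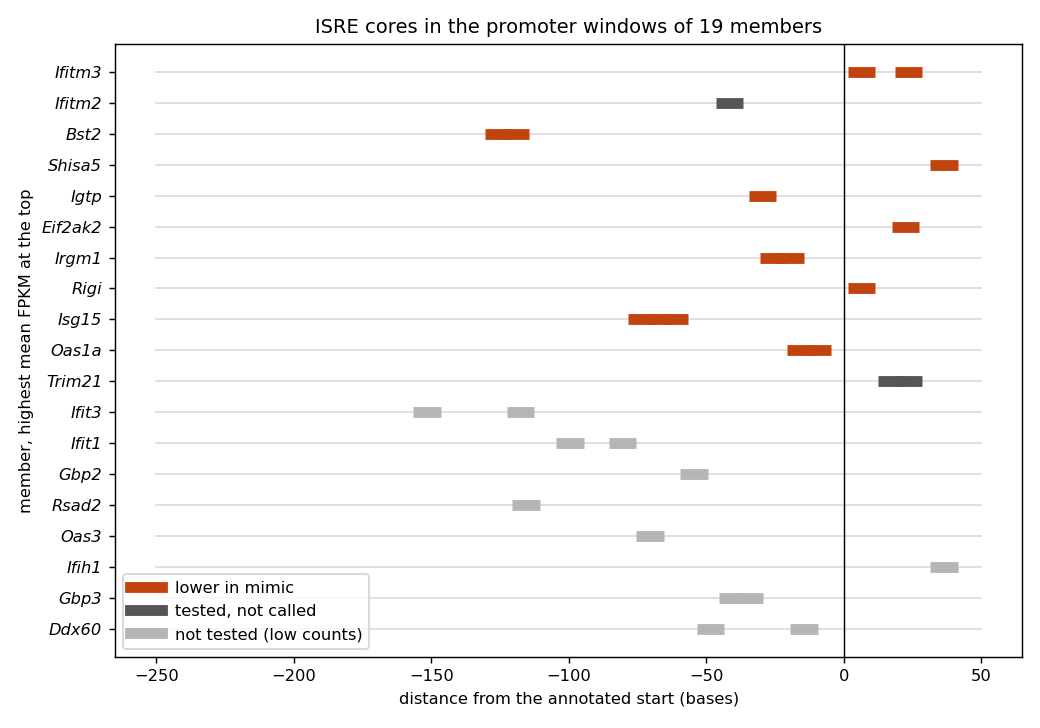
Position of each ISRE core (10 bases) in the promoter windows of 19 members, as distance from the annotated start (horizontal axis), members ordered by mean FPKM, coloured by the result of the test. The cores begin between 156 bases before and 33 bases after the start, and the 8 members at the bottom are those whose counts were too low for a test.

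The 3' UTRs of the members were searched for matches to the seed of miR-291a-3p in GENCODE M21 on GRCm38; the deposited counts were made on another build. The matches were the 8mer AGCACTTA, the 7mer-m8 AGCACTT and the 7mer-A1 GCACTTA, in the longest annotated 3' UTR of a gene. Of the 34 tested members 8 held such a site (23.5%), against 2419 of 11578 tested genes with a 3' UTR (20.9%). Of the tested genes with such a site 38.6% fell and 18.1% rose, and of those without 24.6% fell and 29.8% rose. Among the members all 8 with a site fell, with a median log2 change of -0.38, and of the 26 without 20 fell and 2 rose, with a median of -0.49. The 26 include Parp14, Usp18 and Xaf1, which passed the filter through the control libraries alone and so had to differ. The difference between the 2 medians was not tested. Of the 5 members with the lowest log2 changes, Parp14, Usp18 and Samd9l held no match, Xaf1 a 6-base match and Oas1a the 8mer. Ifitm3, Trim21 and Zc3hav1 also held a 6-base match.

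The 8 members hold 9 sites of 7 or 8 bases, and 1 site per member is shown with up to 10 bases on either side, because these are the longest matches to the seed among the members. Capitals mark the match. Oas1a has the only 8mer, at chr5:120896598-120896605, and Trim25 the only 7mer-A1, at chr11:89017182-89017188. The 7mer-m8 sites lie at chr19:34574954-34574960 in Ifit2, chr16:35928098-35928104 in Dtx3l, chr17:78852764-78852770 in Eif2ak2, chr2:181228010-181228016 in Helz2, chr11:119486885-119486891 in Rnf213 and chr2:167036556-167036562 in Znfx1, which has a second site that is not shown. Ifit2, Trim25 and Rnf213 are on the plus strand and the others on the minus strand. The Helz2 site lies in a 3' UTR of 1130 bases. The Helz2 transcript with the longest coding sequence has a 3' UTR of 116 bases without a match.
Oas1a: gcatttagtgAGCACTTActacatatgc
Trim25: agtggtgcgtGCACTTAatccgagcct
Ifit2: ctgtaatcctAGCACTTggaatctgag
Dtx3l: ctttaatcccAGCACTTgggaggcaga
Eif2ak2: tgcttctcaaAGCACTTtggacctttg
Helz2: taaggtacccAGCACTTctgggcctgt
Rnf213: agacaaacaaAGCACTTtccagttctc
Znfx1: cgctagagtaAGCACTTtacccccagc

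The surroundings of the Dtx3l site are not particular to that gene. Its central 21 letters, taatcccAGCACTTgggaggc, were found in the 3' UTRs of 108 of the 11578 genes, and of 2048 that hold the match AGCACTT at all. Such letters are typical of the B1 element, a short repeat scattered over mouse genes.

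Other genes of the interferon pathway, a list of 84 that does not overlap the 45, were also mostly lower. Of 57 tested, 41 fell, 5 rose and 11 did not pass, against 24.8% and 24.3% of all genes, and the median log2 change was -0.32. Some of the 41, such as Ifi27l2a and Sp110, passed the filter through the control libraries alone and so had to differ. Of the 51 with a mean of at least 30 counts, 36 fell and 5 rose, against 27.1% and 27.4% of all genes with that mean. Stat2, a signalling factor of type I interferon, averaged 19.2 ± 0.064 CPM in mimic libraries and 23.0 ± 1.55 CPM in control libraries (SD, n = 3 each; log2 change -0.26, adjusted p = 0.000379, edgeR). Irf9, its DNA-binding partner, did not pass, with 7.94 ± 0.492 CPM in mimic libraries and 8.23 ± 0.537 CPM in control libraries. Irf1, an activator of many of these genes, had overlapping groups and a log2 change of -0.19 (adjusted p = 0.0108), and Irf7, which amplifies the response, had 3 to 6 counts per mimic library and 5 to 8 per control library.

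The 6 other genes that fell with the smallest adjusted p were Slfn9, Lgals3bp, Irf2, Ifngr2, Pml and Ube2l6. Lgals3bp, a secreted glycoprotein, averaged 14.99 ± 1.255 CPM in mimic libraries and 27.2 ± 1.26 CPM in control libraries, and Irf2, a factor that can repress interferon targets, 13.1 ± 0.488 CPM in mimic libraries and 23.3 ± 0.141 CPM in control libraries (SD, n = 3 each). Slfn9, of the Schlafen family, Ifngr2, a chain of the receptor for type II interferon, and Pml, the organiser of nuclear bodies that hold Sp100, had log2 changes of -0.63, -0.61 and -0.45. Ifngr1, the other chain of that receptor, had overlapping groups and did not pass the test (log2 change -0.04, adjusted p = 0.587, edgeR). The 4 that rose with the smallest adjusted p were Ogfr (log2 change 0.17), the histone chaperone gene Daxx (0.18), Socs1, a feedback inhibitor of Jak kinases (0.18), and Rbck1, a subunit of the ligase for linear ubiquitin chains (0.11). With total counts only, 2 other pathway genes rose in place of 5. The receptor genes Ifnar1 and Ifnar2 each had overlapping groups and a log2 change of -0.05, and neither passed the test. The kinase genes Jak1 and Tyk2 were lower in every mimic library than in any control library. Their log2 changes were -0.24 and -0.31 (adjusted p = 1.99e-09 and 1.19e-05, edgeR).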

How the data were processed

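Titles placed 3 libraries in the mimic and 3 in the control group. mRNA was captured on beads and sequenced as strand-specific paired-end libraries, per the labels' protocols. Per the submitters' processing notes, HISAT2, DESeq2 and the build GRCm39 were used. How reads were counted, with which annotation and strand option, is not given in the sources used here. Deposited by the authors were read counts per gene for 24794 genes and, as written by the authors, FPKM values with 2 decimals for 24494 genes. Without a stated strand setting, reads of overlapping genes may be shared.

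After filterByExpr and TMM scaling, 13779 genes were tested on counts by edgeR 4.0.16's quasi-likelihood test (R 4.3.3), with Benjamini-Hochberg adjustment. CPM are scaled by TMM, and an SE is the log2 change over the square root of F. Members under a mean of 30 counts, or not tested, were given as summed counts over library totals with exact Poisson intervals (95%) and a floor of 3 counts. Per-library values were given by a rule (the 12 largest called changes, and per role group the smallest adjusted p and the highest FPKM) and for further members, chosen after their values were seen. The other pathway genes named by rule were the 6 fallen and 4 risen with the smallest adjusted p and a mean of at least 2 CPM, Stat2, Irf1, Irf2, Irf7 and Irf9. Uba7, Herc6, Ifnar1, Ifnar2, Ifngr1, Jak1, Tyk2, Ifi27l2a, Ifit3b and Sp110 were named in addition. A result that the rule also called for is not reported here. The members and lists were chosen with earlier results of these data known. Alternatives were DESeq2 1.42.0, DESeq2 size factors, total counts, 2 other filters, limma 3.58.1 on FPKM, a replicate block, each library left out and a threshold of 0.01. The fit was tested on data simulated with its own dispersions and independent libraries, which cannot show whether the libraries here are technical repeats.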

Additional observations from a re-analysis of the deposited data

How the results depend on the processing

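The count of 28 fallen members stayed between 23 (DESeq2) and 29 (no filter), and 22 members fell in each setting that tested them. The 28 include Usp18, Xaf1 and Parp14, and the 22 include Xaf1. These 3 genes passed the filter through the control libraries alone and so had to differ. Among members with a mean of at least 30 counts, 24 fell. The 2 risen members were 0 with DESeq2, total counts only or an adjusted p under 0.01, 1 with limma on log2(FPKM + 1) or log2(FPKM + 0.1), and 0 to 2 with a library left out. Of the other pathway genes, 5 rose, against 1 with limma on either FPKM scale, 2 with total counts only and 3 to 5 with a library left out. With DESeq2, 0 effectors that bind double-stranded RNA, 1 ISGylation gene and 1 GTPase fell. With at least 2 CPM in 3 libraries 1 ISGylation gene fell, since fewer genes were tested, and with an adjusted p under 0.01 1 GTPase fell. With a library left out, 1 to 2 GTPases and 1 to 2 RNA sensors fell. Where no construction shows it, the cause was not tested. Without a filter Rsad2 was also called (adjusted p = 0.0318, edgeR), and the change of scaling to total counts moved the median of all genes to -0.06. Over all genes, total counts only gave 2341 risen and 4444 fallen, against 3349 and 3423. Members with a mean of at least 30 counts, and ratios of summed counts with a library left out, were added after seeing the data. The labels do not say whether replicate numbers pair the libraries. Same-numbered libraries had deviations correlated at 0.0196, 0.0748 and 0.0547, each higher than with other numbers, a hint from the data and not the design. With the replicate number as a block 28 members fell and 2 rose. With the transcript of the longest coding sequence the seed sites were in 7 members, without Helz2. The shorter core GAAANNGAA was in 22 members and 9.76% of genes. Depth limits the 10 members that could not be tested.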
